A study of Mus musculus with 12 samples.

Results

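The keratins are the intermediate filament proteins of epithelial cells, and they were followed here across the esophagus and the liver of mice with and without a Nanog transgene. The members were all genes whose symbol is Krt followed directly by a digit and whose RefSeq accession on the array matched the mouse gene table; 38 of the 55 such genes in that table had a probe, 41 probes in all, among 16535 named genes on the array. The 17 without a matched probe (Krt8-ps, Krt24, Krt28, Krt32, Krt33b, Krt36, Krt39, Krt40, Krt42, Krt72, Krt73, Krt74, Krt77, Krt78, Krt80, Krt81 and Krt83) were not analysed here. Total RNA of 6 male mice aged 8 months, of mixed 129Sv/C57BL6 background, was hybridized to 12 single-colour arrays, 1 per organ and mouse. The 3 TG mice (Col1a1tetO-Nanog/+;Rosa26rtTA/+) carry Nanog under a doxycycline-dependent promoter together with the doxycycline-activated regulator rtTA, and the 3 CTR mice (Col1a1+/+;Rosa26rtTA/+) carry rtTA alone. All 6 drank doxycycline at 0.2 mg/ml in 7.5% sucrose for 48 h, so every difference between TG and CTR is among mice that received the drug and hold the activator. The groups were TG esophagus, CTR esophagus, TG liver and CTR liver, each with 3 mice, and per the labels both organs came from the same animals. Nanog keeps embryonic stem cells pluripotent, and the study's title concerns the mitotic program of stratified epithelia, the layered linings to which the esophagus belongs.

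Keratin filaments are built from pairs of a type I and a type II keratin, and each epithelium uses its own pairs. Krt5 and Krt14 are the pair of the dividing basal layer of stratified epithelia, Krt4 and Krt13 that of the upper layers of the esophageal and oral lining, and Krt1 and Krt10 that of the upper layers of the epidermis. Krt8 and Krt18 are the pair of single-layered epithelia and of hepatocytes, often joined by Krt7 and Krt19 in ducts and airways. Krt6a, Krt6b, Krt16 and Krt17 are keratins of wounded and hyperproliferative epidermis and of hair follicles. Type I genes lie together on chromosome 11 and type II genes on chromosome 15, with Krt18 as the type I gene inside the type II cluster. Among the 38 members, 19 type I genes lay on chromosome 11, and 1 type I and 18 type II genes on chromosome 15.

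Values are normalized log2 signals, that is log2 of a probe's processed signal minus the 75th percentile of its array, so that 0 marks the brightness of that percentile. The share of probes clearly above background ran from 56.5% to 81.8% per array. Liver TG3 stood apart before any test: its 25th percentile was -3.80, while the remaining 5 livers ranged from -6.11 to -5.79, and it gave the highest of the 6 liver values for 30 of the 38 keratins (for 45.6% of all genes and unnamed probes). The esophagi carried their organ's markers, with 11 of 11 measured genes of stratified epithelium, 6 of 6 of striated muscle and 5 of 5 of smooth muscle higher than in liver in both genotypes, and 7 of 7 hepatocyte genes lower. No array had a Nanog signal well above background; its level was -8.01 ± 0.22 in TG and -8.17 ± 0.20 in CTR esophagi and at -6.51 ± 0.78 in TG and -7.17 ± 0.77 in CTR livers (SD, n = 3 each), so induction of the transgene was not seen with this probe. RNA was extracted with a fibrous-tissue kit from the esophagi but with Trizol followed by column purification from the livers, and organ therefore cannot be told apart from extraction. Several clock genes of the 2 organs did not match in mice TG1 and CTR1. Per2, a clock repressor, had -2.92 in esophagus and 0.66 in liver of TG1, and -0.41 in esophagus and -1.60 in liver of CTR1. Arntl, the opposing activator, had 0.69 in esophagus and -3.46 in liver of TG1, and -1.24 in esophagus and 0.19 in liver of CTR1. The esophagi and livers of both mice were used as labelled. Whether the 2 esophagi, or the 2 livers, were exchanged with each other was not tested, and these values do not tell which. Results without both esophagi are given below, while livers TG1 and CTR1 were not left out together. The size and direction of TG minus CTR values in which these mice lie at opposite ends, as in esophageal Krt8, depend on those labels. Several keratins have near-identical relatives (Krt6a and Krt6b, Krt14, Krt16 and Krt17, and the hair keratins), and probe sequences were not available to check which relative a probe binds, so values within these sets are uncertain.

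Keratins divided the organs. In TG mice 30 members could be tested between esophagus and liver, a test that needed every array of one of the groups to be well above background. Of these, 13 were higher in esophagus, where 23.5% of all tested genes and probes were, and 6 were lower, where 37.6% were (limma, Benjamini-Hochberg adjusted p below 0.05). In CTR mice 28 members could be tested, and 16 were higher in esophagus (26.8% of everything tested) and 4 lower (33.4%). The same 13 members passed as higher in both genotypes (Krt1, Krt4, Krt5, Krt6a, Krt6b, Krt10, Krt13, Krt14, Krt15, Krt23, Krt35, Krt76 and Krt79) and 3 as lower in both (Krt8, Krt18 and Krt34). The median difference of the tested members was 1.1 in TG and 2.28 in CTR mice on the log2 scale, beside -0.36 and -0.14 for everything tested. Since a member enters the test through its brighter organ, these counts describe the tested members and not the family, and in bulk RNA fewer cells of a type and less RNA per cell cannot be told apart. On all 3 arrays of a group, 30 members were well above background in TG and 28 in CTR esophagi, and 19 in TG and 14 in CTR livers. Of all probes, 69.9%, 70.9% and 75.3% were above background in TG esophagi and 73.5%, 71.0% and 74.1% in CTR esophagi. In livers these shares were 66.4%, 68.0% and 81.8% in TG and 69.0%, 69.6% and 56.5% in CTR, the last being liver CTR3. When a signal above background was required in both organs, 11 members passed in CTR mice, because Krt4, Krt15 and 7 others were then not tested.

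The keratins of the basal layer were bright in every esophagus and dim in every liver. Krt5, the type II basal keratin, stood at 7.98, 7.50 and 8.04 in TG esophagi and 7.54, 8.00 and 8.21 in CTR esophagi, against -2.21, -2.26 and -0.85 in TG livers and -1.28, -2.97 and -1.65 in CTR livers. The 6 esophagi lay between 7.50 and 8.21 and the 6 livers between -2.97 and -0.85. The organ difference of Krt5 was 9.62 (SE 0.49) in TG mice and 9.88 (SE 0.49) in CTR mice, with limma adjusted p = 8.99e-08 and 6.82e-08. Its partner Krt14 stood at 5.20, 4.76 and 4.95 in TG esophagi and 4.92, 5.19 and 5.0 in CTR esophagi, and at -1.29, -1.37 and -0.99 in TG livers and -1.53, -1.10 and -1.53 in CTR livers. Krt14 thereby differed by 6.19 (SE 0.21) in TG mice, a 72.8-fold difference, and by 6.42 (SE 0.21) in CTR mice, an 85.6-fold difference. Krt15, a type I keratin of basal and stem-like cells, was also far apart between the organs. It stood at 7.79, 7.53 and 7.31 in TG esophagi and 7.52, 7.63 and 7.57 in CTR esophagi, against -5.75, -4.29 and -2.85 in TG livers and -5.36, -4.95 and -6.17 in CTR livers. Its difference was 11.84 (SE 0.60) in TG mice and 13.07 (SE 0.60) in CTR mice, but only 2 TG livers and 1 CTR liver had a signal above background. Over all alternatives, single arrays left out included, it lay between 10.29 and 12.60 in TG mice and between 10.67 and 13.96 in CTR mice.

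The promoters of the 2 best known pairs are shown because Krt5 with Krt14 and Krt8 with Krt18 were each high in the same organ. Each is the RefSeq window on GRCm38.p6 from 250 bases before to 50 bases after the annotated start of the gene, 5′ to 3′ on the gene's strand. The motifs searched on both strands were the TATA box (TATAAA), the GC box (GGGCGG) and the AP-1 motif (TGANTCA), and capitals mark any match. Krt8 is the only one of the 4 with a match, TATAAA read on both strands, as 2 overlapping hits. Their first bases lie at -3 and -1 relative to the annotated start. The Krt5 window lies at chr15:101712856-101713155 on the minus strand, that of Krt14 at chr11:100205981-100206280 on the minus strand, that of Krt8 at chr15:102004293-102004592 on the minus strand and that of Krt18 at chr15:102027966-102028265 on the plus strand.
Krt5: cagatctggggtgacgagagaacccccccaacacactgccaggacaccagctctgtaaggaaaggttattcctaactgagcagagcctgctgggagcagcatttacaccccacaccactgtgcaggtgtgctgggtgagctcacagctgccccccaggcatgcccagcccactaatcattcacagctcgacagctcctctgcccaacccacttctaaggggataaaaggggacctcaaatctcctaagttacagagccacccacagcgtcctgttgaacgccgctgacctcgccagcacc
Krt14: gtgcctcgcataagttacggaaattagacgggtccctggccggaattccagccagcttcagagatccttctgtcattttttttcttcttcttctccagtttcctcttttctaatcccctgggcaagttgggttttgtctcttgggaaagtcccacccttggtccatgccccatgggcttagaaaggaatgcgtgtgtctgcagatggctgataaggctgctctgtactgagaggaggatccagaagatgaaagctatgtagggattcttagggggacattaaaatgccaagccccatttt
Krt8: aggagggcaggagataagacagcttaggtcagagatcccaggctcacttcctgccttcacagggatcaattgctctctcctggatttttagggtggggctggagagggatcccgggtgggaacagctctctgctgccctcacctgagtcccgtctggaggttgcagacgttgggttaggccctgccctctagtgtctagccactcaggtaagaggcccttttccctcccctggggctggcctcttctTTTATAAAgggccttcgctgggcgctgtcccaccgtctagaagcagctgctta
Krt18: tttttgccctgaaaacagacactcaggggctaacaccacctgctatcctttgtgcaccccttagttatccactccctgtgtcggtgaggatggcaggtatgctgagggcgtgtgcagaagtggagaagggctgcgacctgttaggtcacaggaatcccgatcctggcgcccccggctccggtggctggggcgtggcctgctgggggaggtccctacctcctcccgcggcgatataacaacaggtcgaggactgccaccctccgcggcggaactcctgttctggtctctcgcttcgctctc
Over the 25 RefSeq windows of the 24 members that matched, TATAAA was found in 12, or 48% (13.6% of all 32851 mouse windows of that length), GGGCGG in 2, or 8% (35.7% of all), and TGANTCA in 2, or 8% (7.81% of all). GC content was 57.7% for Krt5, 48.3% for Krt14, 58% for Krt8 and 61.3% for Krt18, beside a median of 52.7% over all windows. These matches are letters in a fixed window, and no binding was measured.

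The pair of the upper layers of the esophageal lining followed the basal keratins. Krt4, the type II partner, stood at 8.16, 7.67 and 8.18 in TG esophagi and 7.82, 8.27 and 8.20 in CTR esophagi, against -4.98, -4.35 and -1.80 in TG livers and -4.73, -4.04 and -5.44 in CTR livers, where 2 of 3 arrays per genotype were above background. Krt4 differed between the organs by 11.71 (SE 0.69) in TG mice and 12.84 (SE 0.69) in CTR mice, and lay between 10.13 and 12.67 and between 10.68 and 13.18 over all alternatives. For Krt13, the type I partner, the signals were 6.36, 5.95 and 6.25 in TG esophagi and 5.74, 6.38 and 5.85 in CTR esophagi, and -2.25, -1.60 and -1.25 in TG livers and -1.45, -2.13 and -1.49 in CTR livers. Its difference was 7.89 (SE 0.31) in TG mice and 7.68 (SE 0.31) in CTR mice. A second Krt13 probe gave 12.24 and 13.12. Its liver signal was above background on only 1 array per genotype. In esophagus its mean was 7.66 in TG and 7.82 in CTR, against 6.19 and 5.99 for the first probe. The probes share the direction and disagree in size, and the reason was not tested.

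**Figure D1:**
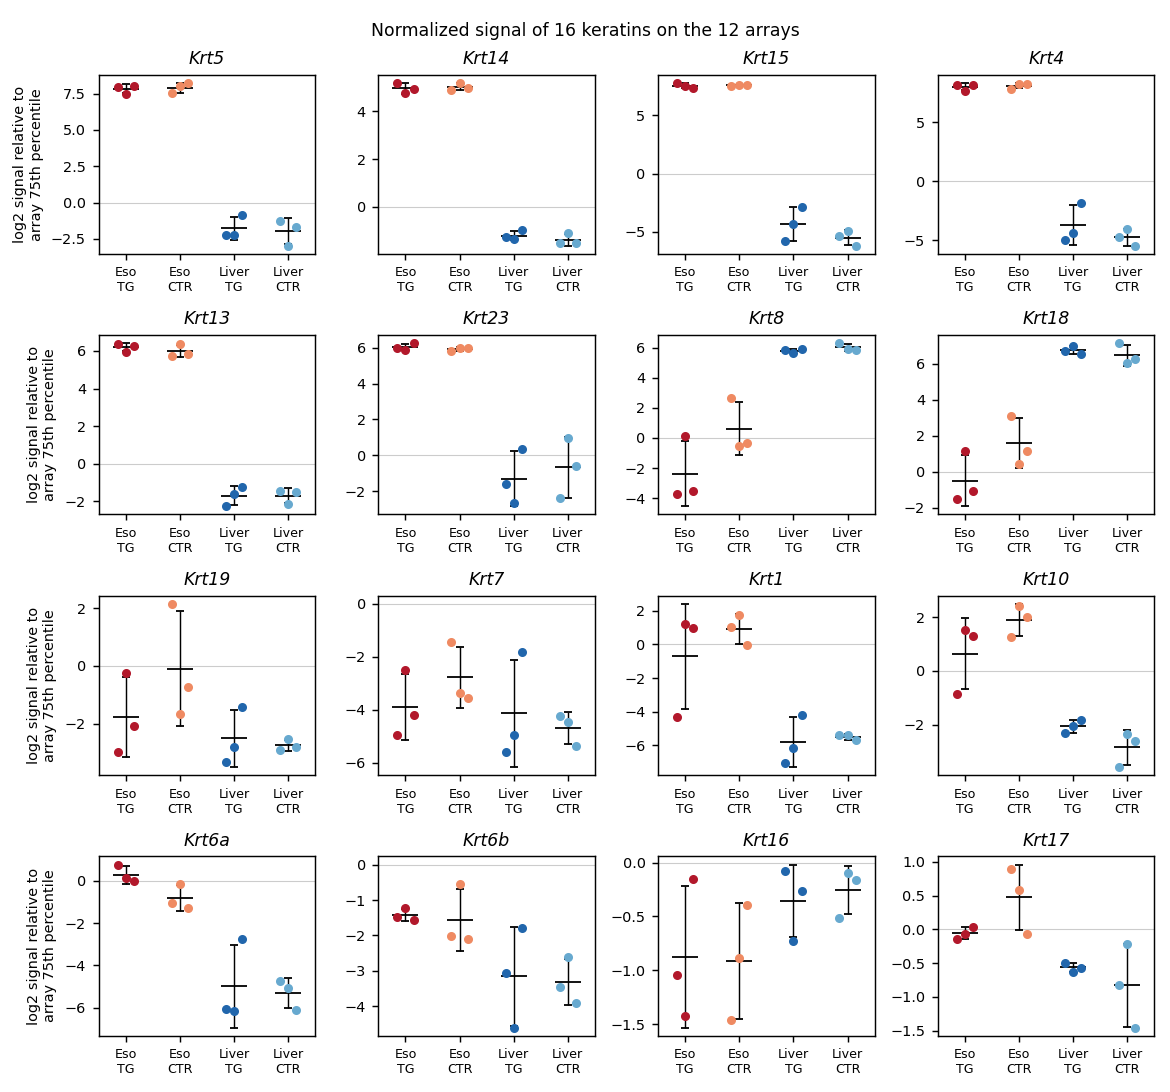
Normalized log2 signal (relative to each array's 75th percentile) of 16 keratins on the 12 arrays. Points are single mice, from replicate 1 to 3 in each group, and bars are the mean ± SD of 3 mice; each panel has its own vertical scale, so levels are not to be compared between panels. Krt5, Krt14, Krt15, Krt4, Krt13 and Krt23 separate esophagus from liver without overlap, Krt8 and Krt18 separate them the other way, and TG and CTR esophagi overlap in every panel except that of Krt6a.

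Keratins of the upper epidermis were mixed. Krt1, a type II keratin of the spinous and granular layers, had -4.29, 1.21 and 0.97 in TG esophagi and 1.03, 1.77 and -0.05 in CTR esophagi, with -7.05, -6.16 and -4.16 in TG livers and -5.39, -5.40 and -5.68 in CTR livers; 1 liver per genotype was above background. Esophagus TG1 lay within the range of the TG livers, and the organ difference of 5.09 (SE 1.31) in TG and 6.41 (SE 1.31) in CTR mice passed in both. Krt10, its partner, had -0.87, 1.51 and 1.28 in TG esophagi and 1.27, 2.43 and 2.01 in CTR esophagi, with -2.30, -2.05 and -1.81 in TG livers and -3.56, -2.34 and -2.60 in CTR livers. It was higher in esophagus by 2.70 (SE 0.60) in TG and 4.74 (SE 0.60) in CTR mice. Krt9, the keratin of palm and sole skin, was dim throughout, at -3.77, -3.90 and -3.45 in TG esophagi and -3.92, -4.18 and -5.39 in CTR esophagi and at -3.17, -2.65 and -2.40 in TG livers and -4.03, -2.69 and -3.27 in CTR livers. Its difference of -1.16 (SE 0.43) in CTR mice had a limma adjusted p of 0.0395, which became 0.0636 when the animal entered as a block, and in TG mice -0.97 (SE 0.43) did not pass. Krt2, a late keratin of epidermal differentiation, had -4.94, -4.87 and -3.71 in TG esophagi and -4.49, -4.26 and -6.59 in CTR esophagi, and -3.34, -2.18 and -2.70 in TG livers and -4.12, -3.77 and -3.86 in CTR livers. It was tested in TG mice only and was lower in esophagus, with a difference of -1.77 (SE 0.59), a call lost under 8 of 22 alternatives. Its second probe was not well above background in any esophagus.

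Among the stress and wound keratins, Krt6a and Krt6b were higher in esophagus and Krt16 did not pass. Krt6a had 0.76, 0.11 and -0.02 in TG esophagi and -1.06, -0.15 and -1.29 in CTR esophagi, against -6.06, -6.16 and -2.76 in TG livers and -4.71, -5.08 and -6.11 in CTR livers, and differed between organs by 5.27 (SE 0.81) in TG and 4.47 (SE 0.81) in CTR mice. Of the TG livers 1 and of the CTR livers 2 were above background for Krt6a. Krt6b had -1.48, -1.24 and -1.56 in TG esophagi and -2.01, -0.56 and -2.11 in CTR esophagi, and -3.05, -4.60 and -1.80 in TG livers and -3.45, -2.61 and -3.90 in CTR livers. Its differences of 1.73 (SE 0.67, limma adjusted p = 0.0443) in TG and 1.76 (SE 0.67, adjusted p = 0.0418) in CTR mice were lost in 10 and in 8 of 22 alternatives. Krt16 gave -1.05, -1.43 and -0.15 in TG esophagi and -1.46, -0.89 and -0.39 in CTR esophagi, and -0.08, -0.73 and -0.26 in TG livers and -0.51, -0.10 and -0.16 in CTR livers, so that all 4 groups overlapped. Krt17 gave -0.14, -0.06 and 0.04 in TG esophagi and 0.89, 0.59 and -0.06 in CTR esophagi, and -0.50, -0.63 and -0.57 in TG livers and -0.83, -0.21 and -1.46 in CTR livers. Its organ difference passed in CTR mice at 1.30 (SE 0.32, limma adjusted p = 0.00552) and not in TG mice at 0.51 (SE 0.32); the test of the change between genotypes, -0.79 (SE 0.46), did not pass.

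The simple epithelial pair ran the other way. Krt8, the type II keratin of simple epithelia, stood at -3.75, 0.10 and -3.49 in TG esophagi and 2.68, -0.51 and -0.31 in CTR esophagi, against 5.82, 5.63 and 5.91 in TG livers and 6.28, 5.90 and 5.86 in CTR livers. The esophagi spread from -3.75 to 2.68, while the livers lay between 5.63 and 6.28. The organ difference of Krt8 was -8.17 (SE 1.03, limma adjusted p = 7.34e-05), or 288-fold, in TG mice and by -5.40 (SE 1.03, adjusted p = 0.00119), or 42.1-fold, in CTR mice. Krt18 stood at -1.54, 1.12 and -1.10 in TG esophagi and 3.11, 0.44 and 1.16 in CTR esophagi, against 6.69, 6.98 and 6.55 in TG livers and 7.12, 6.02 and 6.24 in CTR livers. The difference of Krt18 was -7.25 (SE 0.77) in TG mice and -4.89 (SE 0.77) in CTR mice, and no esophagus reached a liver.

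The ductal keratins Krt7 and Krt19 were low in liver. Krt19 had -2.98, -0.26 and -2.06 in TG esophagi and 2.14, -1.67 and -0.74 in CTR esophagi, with -3.32, -2.79 and -1.42 in TG livers and -2.89, -2.53 and -2.80 in CTR livers. It passed as higher in CTR esophagi at 2.65 (SE 0.96, limma adjusted p = 0.0362); with the animal as a block the adjusted p was 0.0507, and without esophagus CTR1 the difference was 1.53 with an adjusted p of 0.126, and 9 of 22 alternatives lost the call. In TG mice Krt19 differed by 0.74 (SE 0.96) and did not pass. Krt7 had -4.95, -2.51 and -4.20 in TG esophagi and -1.43, -3.35 and -3.55 in CTR esophagi, with -5.61, -4.96 and -1.82 in TG livers and -4.24, -4.47 and -5.38 in CTR livers, and its differences of 0.24 (SE 1.00) in TG and 1.92 (SE 1.00) in CTR mice did not pass. Krt23, a type I keratin grouped here with the simple ones, was by contrast bright and even in the esophagus, at 6.01, 5.88 and 6.25 in TG esophagi and 5.84, 6.0 and 5.99 in CTR esophagi, against -1.60, -2.69 and 0.34 in TG livers and -2.41, 0.98 and -0.58 in CTR livers. Krt23 was higher in esophagus by 7.36 (SE 0.85) in TG and 6.61 (SE 0.85) in CTR mice. Krt20, a keratin of gut and urothelium, was above background on 1 TG esophagus and 1 TG liver and was not tested.

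Most hair keratins were dim or not above background, with a few exceptions in the esophagus. Krt35, an early type I keratin of the hair shaft, stood at -0.58, -0.85 and -0.29 in TG esophagi and -0.37, 0.15 and -0.18 in CTR esophagi, against -4.53, -4.12 and -3.93 in TG livers and -4.65, -4.27 and -6.09 in CTR livers. It was higher in esophagus by 3.62 (SE 0.42, limma adjusted p = 3.85e-05) in TG and 4.87 (SE 0.42, adjusted p = 4.23e-06) in CTR mice, and lay between 2.16 and 4.31 and between 2.82 and 5.23 over all alternatives. Krt31 was not well above background on any CTR liver and was at least 1.66-fold higher in CTR esophagi (limma adjusted p = 0.0133). That call was lost with normexp background correction, with a common floor and without liver CTR2. The common floor of -3.97 lay above the Krt31 signals of esophagi CTR1 and CTR2, at -4.31 and -4.53. Krt33a, likewise dark in CTR livers, was at least 1.74-fold higher and did not pass (limma adjusted p = 0.0589). Krt34 was lower in esophagus, with a difference of -1.35 (SE 0.33) in TG and -0.87 (SE 0.33) in CTR mice, the CTR call being lost in 8 of 21 alternatives. Krt84 and Krt87 did not pass, and Krt82 and Krt86 were not tested. Of the inner root sheath and companion layer keratins, Krt71 and Krt75 were tested. Krt71 was lower in TG esophagi than in TG livers, with a difference of -2.14 (SE 0.63) and differed by -0.04 (SE 0.63) in CTR mice, while Krt75 passed in neither genotype. Krt25, Krt26 and Krt27 were above background on no esophagus, on 1 TG liver each and, for Krt26, on 1 CTR liver.

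Of the remaining keratins, Krt76 and Krt79 were higher in esophagus. Krt76, a type II keratin of the oral lining, differed by 5.32 (SE 0.77) in TG and 5.72 (SE 0.77) in CTR mice, with signals of -0.18, 0.17 and 0.53 in TG esophagi and -0.11, 0.32 and -0.08 in CTR esophagi. Krt79, found in the funnel of the hair follicle, differed by 4.71 (SE 0.61) and 5.23 (SE 0.61), with 0.91, 0.16 and 0.13 in TG esophagi and 0.22, 0.13 and 0.21 in CTR esophagi. Krt76 and Krt79 were each above background on 2 TG livers and 1 CTR liver, and the alternatives put the difference of Krt76 between 3.05 and 6.22 in TG and between 3.15 and 6.21 in CTR mice. For Krt79 they put it between 3.16 and 5.34 in TG and between 3.01 and 5.94 in CTR mice. Krt88 was lower in TG esophagi, with a difference of -1.23 (SE 0.30, limma adjusted p = 0.00476) and did not pass in CTR mice at -0.69 (SE 0.30). Krt12, the keratin of the corneal epithelium, and Krt90 did not pass where tested, and Krt222 was not tested. Neither Krt2, Krt71 and Krt88, which passed in TG mice only, nor Krt9, Krt17, Krt19 and Krt31, which passed in CTR mice only, passed the test of the change between genotypes. Without liver TG3, 23 instead of 19 members passed in TG mice, with Krt12, Krt31, Krt33a and Krt87 added. Without livers TG3 and CTR3 the counts were 22 in TG and 18 in CTR mice, and without esophagi TG1 and CTR1 they were 17 in each, 2 settings chosen after seeing the data.

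**Figure D2:**
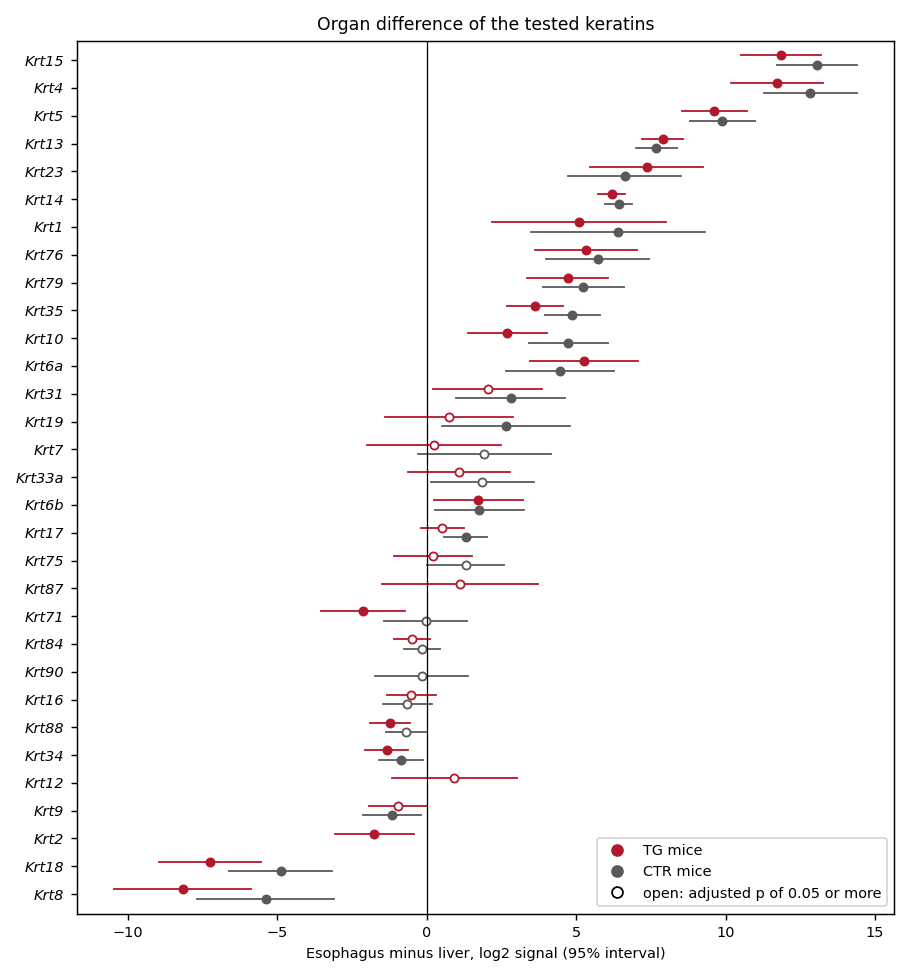
Difference between esophagus and liver in log2 signal for each tested keratin, with its 95% interval from the fit over 12 arrays; the upper marker of each row is for TG mice and the lower for CTR mice. Filled markers passed the adjusted p of 0.05. The brightest probes of Krt15, Krt4 and Krt5 lie at the right, at 9.62 to 13.07, and Krt8 and Krt18 at the left, at -8.17 to -4.89; Krt31 and Krt33a in CTR mice are set against livers below background.

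Genes that anchor or bundle keratin filaments were mostly higher in esophagus as well. Of 19 listed genes 15 had a probe, and in TG mice 12 were higher and 2 lower than in liver of 14 tested (23.5% and 37.6% of everything tested); in CTR mice 13 were higher and 2 lower of 15 (26.8% and 33.4% of everything). Evpl, the envoplakin that ties filaments to the cell border, differed by 8.17 (SE 0.26) in TG and 8.31 (SE 0.26) in CTR mice. The desmosomal plakophilin Pkp1 differed by 10.39 (SE 0.35) and 11.02 (SE 0.35). Pkp2, the plakophilin of simple epithelia and heart, went the other way in CTR mice at -2.99 (SE 0.28), as did Pkp4 at -1.55 (SE 0.26). Intermediate filament genes other than keratins were higher in 7 of 13 tested in TG mice, with 2 lower, and in 10 of 13 in CTR mice, with 0 lower, beside the same shares of everything tested. Des, the desmin of muscle, differed by 9.13 (SE 0.41) in TG and 9.42 (SE 0.41) in CTR mice.

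Whether Nanog induction moved the keratins of the esophagus was the first comparison of the design between genotypes. None of the 31 tested members passed, as did 0% of the 23208 genes and probes tested (limma, adjusted p below 0.05; 735 of them had an unadjusted p below 0.05, and 3 keratins did). The keratins of the layered lining were close to equal in TG and CTR. Krt5 differed by -0.08 (SE 0.49, 95% interval -1.16 to 1.01) and Krt14 by -0.06 (SE 0.21, interval -0.52 to 0.40). Krt15 differed by -0.03 (SE 0.60), Krt4 by -0.09 (SE 0.69) and Krt13 by 0.20 (SE 0.31), while a second Krt13 probe gave -0.16. These errors carry the spread of the livers through the shared fit; with the 6 esophagi alone the SE was 0.25 for Krt5, 0.18 for Krt14, 0.18 for Krt15, 0.22 for Krt4 and 0.23 for Krt13. TG and CTR esophagi overlapped in each of the 5, and within the slide shared by TG1 and CTR2 the differences ran from -0.11 for Krt4 to 0.16 for Krt15. With slide as a fixed block Krt4 stood at 0.70 and Krt15 at 0.57, and neither passed. The median over the 31 members was -0.08, beside -0.003 for everything tested, and 12 of 31 had a higher mean in TG.

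The lowest values in TG esophagi were those of the simple keratins. Krt8 differed by -3.0 (SE 1.03, interval -5.30 to -0.70, limma adjusted p = 1.00) and Krt18 by -2.08 (SE 0.77, limma adjusted p = 1.00). The SD of Krt8 was 2.15 in TG and 1.78 in CTR esophagi, but 0.15 in TG and 0.23 in CTR livers. That of Krt18 was 1.42 and 1.38 in the esophagi, and 0.22 and 0.58 in the livers. The shared fit pools these spreads, so the SEs, that of Krt19 below included, and the interval understate the spread of the esophagi. A second Krt8 probe gave -2.84. By mouse, Krt8 was low in TG1 and TG3, TG2 lay between CTR1 and the other controls, and CTR1 was the highest, so that the groups overlapped. Krt19 at -1.67 (SE 0.96) and Krt7 at -1.11 (SE 1.00) had the same order of TG1, TG3 and CTR1 at the ends, while Krt23 ranged only from 5.84 to 6.25 over the 6 esophagi, at 0.10 (SE 0.85). Without esophagi TG1 and CTR1, left out after seeing the data, Krt8 differed by -1.29 (SE 0.93) and Krt18 by -0.79 (SE 0.69). Without both, Krt19 stood at 0.046 (SE 0.74) and Krt7 at 0.096 (SE 1.16), each with the opposite sign. Leaving out CTR1 alone gave -1.97 for Krt8, -1.31 for Krt18, -0.56 for Krt19 and -0.44 for Krt7, and leaving out TG1 alone gave -1.07 for Krt19 and -0.58 for Krt7. Within the slide that held TG1 and CTR2, Krt8 differed by -3.24 and Krt18 by -1.98.

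The medians of the airway epithelium and fat lists were low in TG1 and TG3 and highest in CTR1, as Krt8 was. The medians of other lists followed another order or varied little. For the airway epithelium list, of which 9 of 10 genes had a probe, the list's median, after subtracting each gene's CTR mean, was -5.02, -1.01 and -4.17 in TG esophagi and 1.99, -1.04 and -0.67 in CTR esophagi. Of these 9 genes 6, 9 and 8 were above background in TG1, TG2 and TG3, and 9, 8 and 9 in CTR1, CTR2 and CTR3. Of the 8 tested airway genes 2 had a higher mean in TG, and the TG minus CTR differences ran from -7.61 to 0.29. Bpifa1, a secreted protein of the upper airways, had -5.20, 4.44 and -5.71 in TG and 7.18, 4.02 and 5.16 in CTR esophagi, and Foxj1, the regulator of ciliated cells, had -6.58, -2.71 and -5.96 in TG and 1.31, -2.08 and -1.38 in CTR esophagi. Club cell Scgb1a1 had -0.49, 2.58 and -0.25 in TG and 5.90, 2.99 and 2.85 in CTR esophagi. The mesothelium list (5 of 5 genes) stood at -2.56, 1.41 and -0.01 in TG and 1.69, -1.07 and -0.66 in CTR esophagi, and the fat list (6 of 6 genes) at -2.63, 0.05 and -2.67 in TG and 0.75, 0.10 and -0.45 in CTR esophagi. Mesothelium thus had TG3 above CTR2 and CTR3. The hepatocyte list (7 of 8 genes) stood at -0.75, -1.02 and -0.78 in TG and -0.55, 0.31 and 0.21 in CTR esophagi, lowest in TG2, with CTR1 the lowest control. The thymus list (5 of 7 genes) stood at -0.48, -0.41 and -0.53 in TG and -0.31, 0.64 and -0.33 in CTR esophagi. The median of the cholangiocyte list (9 of 9 genes) ranged only from 0.01 to 0.07 in TG and from -0.41 to 0.31 in CTR esophagi. Its 8 tested genes differed between TG and CTR esophagi by -1.68 to 0.47. The median of the stomach list (9 of 10 genes) ranged from -0.34 to 0.22 in TG and from -0.15 to 0.04 in CTR esophagi. Of the 9 stomach genes 5, 4 and 6 were above background in TG and 6, 5 and 6 in CTR esophagi. Of the 5 thymus genes 2, 3 and 3 were in TG and 3, 4 and 3 in CTR esophagi. Of the 7 hepatocyte genes 4, 2 and 5 were in TG and 5, 5 and 5 in CTR esophagi. The medians of the stomach, thymus and hepatocyte lists therefore rest partly on signals near background. The part of any of these tissues in the difference of the simple keratins was not tested. The list of stratified epithelium stood at 0.42, 0.22 and 0.06 in TG and -0.19, 0.03 and 0.22 in CTR esophagi.

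**Figure D3:**
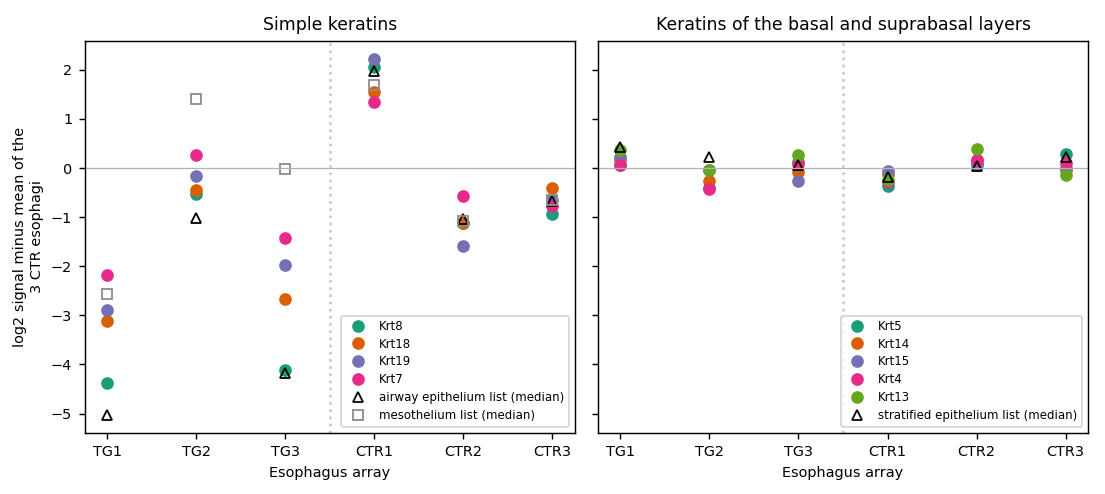
Log2 signal on each of the 6 esophagus arrays minus the mean of the 3 CTR esophagi, with TG mice on the left of the dotted line. Left, the simple keratins Krt8, Krt18, Krt19 and Krt7 with the medians of the airway and mesothelium lists as open symbols; right, keratins of the basal and upper layers with the median of the stratified epithelium list. On the left the 4 keratins and the airway list are low in TG1 and TG3 and highest in CTR1, while the mesothelium list stands at -0.01 in TG3; on the right all points lie within 0.5 log2 units of 0.

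In the upper epidermal pair TG1 stood apart from the other esophagi. Krt10 differed by -1.26 (SE 0.60) and Krt1 by -1.62 (SE 1.31), with TG1 the lowest of the 6 for each. Without TG1 and CTR1 the difference of Krt10 was -0.82 (SE 0.42) and that of Krt1 turned to 0.23 (SE 0.90). Without TG1 alone they were -0.51 for Krt10 and 0.18 for Krt1. The epidermis list (8 of 10 genes) did not share this, at 0.07, -0.01 and 0.38 in TG and -0.10, -0.01 and 0.06 in CTR esophagi.

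In 3 of the 31 keratins all TG esophagi lay above all CTR esophagi (6.32% of everything tested did), and in 0 all lay below (6.13%). These were Krt6a, Krt9 and Krt12. Of these, Krt12 was above background on 3 TG and 0 CTR esophagi and entered the test only through the TG group. Its place in this count is therefore partly set by the filter. An exact permutation test of 3 against 3 mice cannot go below p = 0.1. Krt6a differed by 1.12 (SE 0.81, interval -0.69 to 2.92), and by 0.76 without TG1 and CTR1 and 2.14 with slide as a fixed block. Krt9 differed by 0.79 (SE 0.43), and by 0.35 without CTR3, the lowest of the 6. Krt12 had -4.63, -4.82 and -5.80 in TG esophagi and -8.03, -7.27 and -7.77 in CTR esophagi, where no array was above background. It was thus at least 1.99-fold higher in TG (limma adjusted p = 1.00). Under a common floor for dim signals its difference was 0. That floor, -3.97, was set by liver CTR3 and lies above every esophageal Krt12 signal, so the value of 0 follows from the floor. Of the other wound keratins, Krt6b differed by 0.13 (SE 0.67), Krt16 by 0.04 (SE 0.37) and Krt17 by -0.53 (SE 0.32), with all 3 overlapping between genotypes. Among the hair keratins Krt35 differed by -0.44 (SE 0.42) and Krt75, of the companion layer, by -0.49 (SE 0.58). The hair marker Krtap3-2, a keratin-associated protein, had -0.12, -0.55 and -0.14 in TG esophagi and -3.26, -4.52 and -4.23 in CTR esophagi (difference 3.73, SE 0.45, limma adjusted p = 0.210), while the list of hair follicle markers stood at 0.21, -0.19 and 0.33 in TG and -0.18, 0.10 and -0.03 in CTR esophagi. None of 15 anchoring genes and none of 13 other intermediate filament genes passed between genotypes; Eppk1, the bundling protein epiplakin, had the smallest unadjusted p of the anchoring genes at -0.78 (SE 0.29).

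**Figure D4:**
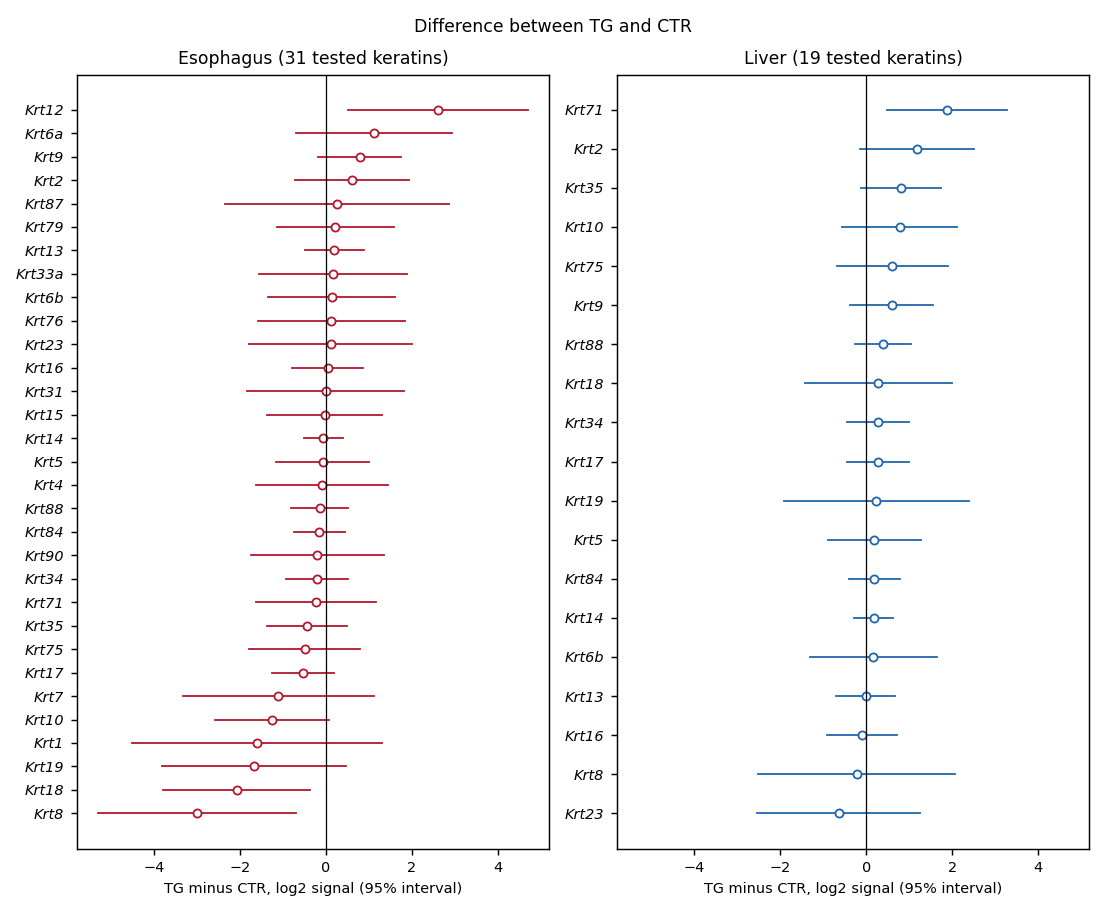
Difference between TG and CTR in log2 signal for each tested keratin in esophagus (left, 31 members) and liver (right, 19 members), with its 95% interval from the fit over 12 arrays. Open markers show that none passed the adjusted p of 0.05; the value of Krt12 in esophagus is set against CTR arrays below background. In esophagus Krt8 and Krt18 lie lowest at -3.0 and -2.08, and in liver Krt71 lies highest at 1.87.

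In the liver none of 19 tested keratins passed between TG and CTR, as did 0% of the 21247 genes and probes tested (1299 had an unadjusted limma p below 0.05, and 1 keratin did). The hepatocyte pair was close to equal, with Krt8 differing by -0.23 (SE 1.03) and Krt18 by 0.28 (SE 0.77). With the 6 livers alone the SE was 0.23 for Krt8 and 0.36 for Krt18. The smallest p of higher members was that of Krt71, a hair follicle keratin, which had -3.48, -2.53 and -2.06 in TG and -3.60, -3.99 and -6.10 in CTR livers, of which 2 were above background. Krt71 differed by 1.87 (SE 0.63, limma adjusted p = 0.761), and by 0.79 (SE 0.45) without livers TG3 and CTR3. Krt2 followed at 1.18 (SE 0.59) and Krt35 at 0.81 (SE 0.42), and within the slide shared by TG3 and CTR2 the difference of Krt71 was 1.93. On the lower side Krt23 differed by -0.64 (SE 0.85) and Krt16 by -0.10 (SE 0.37). In 3 keratins (Krt2, Krt10 and Krt71) all TG livers lay above all CTR livers, as in 8.42% of everything tested. All lay below in 0 (2.87% of everything tested). Krt2, Krt34, Krt35, Krt71 and Krt75 were above background on 3 TG but only 2 CTR livers, so they entered the test through the TG group. The count, and the median that follows, therefore describe the tested members and not the family. The median of the tested members was 0.27 and that of everything tested 0.13; the raised low end of liver TG3 lies in the same group, and its part was not tested.

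The difference between the genotype effects of esophagus and liver was tested for 31 keratins, and none passed, as did 0% of 24438 genes and probes (1005 had an unadjusted limma p below 0.05, and 2 keratins did). Krt10 had the smallest p at -2.04 (SE 0.85), followed by Krt71 at -2.10 (SE 0.89). Krt18 gave -2.36 (SE 1.09) and Krt8 -2.77 (SE 1.46). For the basal pair the values were -0.27 (SE 0.69) for Krt5 and -0.23 (SE 0.29) for Krt14. The adjusted p of every keratin in this test was 0.994 or higher, so a difference between the organs in how the keratins differ by genotype was not shown.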

How the data were processed

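Total RNA of esophagus and liver from 6 mice was labelled with Cy3 and hybridized to 12 Agilent arrays of design 14868, 1 per organ and mouse. Per the file headers, the deposited scanner intensities were extracted with Agilent Feature Extraction 10.7.1.1, which subtracted the background within each array. The deposited log2 table of the authors had a median of 7.27 in every column and correlated at 0.9999 or more with normexp background correction (offset 50) and quantile normalization; limma is named in the submitters' processing notes, and this table served as an alternative.

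From the intensities, 43379 non-control spots were kept and 1311 outlier spots left out; 0 were saturated. Signals were scaled by subtracting each array's 75th percentile after log2, and spots were averaged over 41174 probes. RefSeq accessions named 23374 probes, or 16535 genes, and 17800 probes stayed unnamed. A gene was represented by its brightest probe, the one with the highest mean log2 signal over the 12 arrays. For Krt13 that probe was dimmer in esophagus and brighter in liver than the second one. limma 3.58.1 in R 4.3.3 was fitted once to the 4 groups (8 residual degrees of freedom) and p-values were adjusted over everything tested, with a threshold of 0.05. Testing a feature needed each of the 3 arrays in one of the compared groups to be well above background. A probe below background on every array of a group is given as a lower bound, from that group's lowest detected signal. The number of arrays limits the precision.

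The members and gene lists were chosen with earlier results of these data known. Alternatives were quantile normalization, normexp, the deposited table, a common floor, a stricter filter, slide and animal as blocks, array weights, only the arrays compared, and single arrays left out; normexp used median spot intensities, since the files hold no mean intensity. Per the labels, equal numbers in the 2 organs of one genotype mark the same animal; their deviations from the group means correlated at -0.05 to 0.07. The numbers do not pair TG with CTR mice, whose correlations ran from -0.12 to 0.27. The fit was run on simulated data that had the same spread in both organs for each gene. That run does not cover the unequal spreads of esophagus and liver.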

Additional observations from a re-analysis of the deposited data

How the results depend on the processing

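No keratin passed between TG and CTR in either organ, or in the difference between organs, under any alternative run, the replicate block by number included (0 in each). Between organs, 16 to 23 members passed in TG and 16 to 19 in CTR mice when single arrays were left out, and with the animal as a replicate block 19 passed in TG and 18 in CTR mice, where Krt9 and Krt19 were lost. The stricter filter gave 13 in TG and 11 in CTR mice, since fewer members were tested. Several TG minus CTR differences changed sign without passing, and the cause was not tested. In esophagus, with slide as a fixed block, Krt5 stood at 0.21, Krt14 at 0.070, Krt15 at 0.57 and Krt4 at 0.70. Krt15 stood at 0.059 with normexp and 0.0077 in the authors' deposited table, and Krt16 at -0.0040 with normexp. Krt12 did not change sign but stood at 0 with a common floor, since that floor lies above all its esophageal signals. Without TG1 and CTR1, a setting chosen after seeing the data, Krt13 stood at -0.017, Krt1 at 0.23, Krt7 at 0.096, Krt19 at 0.046, Krt6b at -0.066 and Krt16 at -0.15. With single arrays left out Krt5 ranged from -0.27 to 0.092, Krt14 from -0.18 to 0.041, Krt15 from -0.15 to 0.087, Krt4 from -0.23 to 0.074, Krt1 from -2.57 to 0.18, Krt6b from -0.14 to 0.63 and Krt16 from -0.32 to 0.32. In liver Krt35 stood at -0.0074 in the authors' deposited table and Krt8 at 0.91 with slide as a fixed block, and with single arrays left out Krt23 ranged from -1.51 to 0.18 and Krt16 from -0.24 to 0.087. In the difference between organs leaving out single arrays put Krt5 between -0.61 and 0.23, and it stood at 0.039 without livers TG3 and CTR3, also chosen after seeing the data, and Krt14 stood at 0.020 with slide as a fixed block. Of everything tested, a common floor called 9 in esophagus and 25 in liver, against 0. Keratins below background on some arrays have organ differences set partly by the background, and 3 mice a group limit what could pass.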
